A study of Mus musculus with 25 samples.

Results

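The 10 genes described here encode heterogeneous nuclear ribonucleoproteins (hnRNPs) and were chosen by name: Hnrnpa1, Hnrnpa2b1, Hnrnpc, Hnrnpd, Hnrnpdl, Hnrnph1, Hnrnpk, Hnrnpl, Hnrnpm and Hnrnpu. They are 10 of the 17591 genes with usable introns in the files and hold 95 of 163315 introns. All 10 passed the filter on low counts. The study transplanted tumors from 4 genetically engineered mouse models, of the triple-negative kind of breast cancer, into female mice that were 4 to 5 weeks old at transplant, and gave them H3B-8800 or vehicle. H3B-8800 is an oral compound that binds the SF3b complex of the spliceosome. RNA of whole tumors was kept in RNAlater, selected for poly(A) and made into stranded libraries. PyMT-M tumors grew in C57BL/6 mice (4 H3B-8800 and 4 vehicle libraries), AT3 tumors in C57BL/6 mice (2 and 3), 2208L tumors in Balb/c mice (3 and 3) and T11 tumors in Balb/c mice (3 and 3). By the labels, PyMT-M and 2208L respond to the compound while AT3 and T11 do not, and no more is given of how each model was made. Each library is a separate tumor according to the design text.

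hnRNPs coat nascent transcripts in the nucleus and bind short motifs in introns and exons, where they repress or promote the use of nearby splice sites. Several of them also act on messenger RNA stability, export and transcription. Many hnRNP genes carry exons or introns whose inclusion brings in an early stop codon, so that the transcript is degraded by nonsense-mediated decay, and this is a known means by which the proteins hold their own level. The SF3b complex recognises the branch point upstream of the 3′ end of an intron, a step that every major intron needs.

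The sequences below show what was measured: 5 whole introns of under 300 bases, 4 for their results and Hnrnpl intron 11 as a neighbour of like length to intron 7, and 1 exon with an early stop codon. They were read from GENCODE M21 transcripts that contain them (GRCm38, the same assembly as mm10), and the intron capitals mark the last 40 bases, which hold the polypyrimidine tract and the closing AG. In the exon, the capitals mark the stop codon of an annotated decay transcript.
Hnrnpl intron 7: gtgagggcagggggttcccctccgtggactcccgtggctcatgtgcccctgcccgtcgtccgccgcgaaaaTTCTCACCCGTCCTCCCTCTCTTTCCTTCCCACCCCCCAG
Hnrnpl intron 11: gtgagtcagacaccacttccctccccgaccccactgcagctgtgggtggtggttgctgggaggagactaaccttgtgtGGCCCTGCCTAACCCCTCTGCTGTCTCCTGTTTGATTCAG
Hnrnpk intron 15: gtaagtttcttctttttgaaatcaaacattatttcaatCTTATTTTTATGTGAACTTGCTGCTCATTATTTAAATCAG
Hnrnpa2b1 intron 5: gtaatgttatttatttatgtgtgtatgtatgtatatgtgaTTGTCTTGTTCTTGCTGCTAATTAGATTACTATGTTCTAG
Hnrnpdl intron 6: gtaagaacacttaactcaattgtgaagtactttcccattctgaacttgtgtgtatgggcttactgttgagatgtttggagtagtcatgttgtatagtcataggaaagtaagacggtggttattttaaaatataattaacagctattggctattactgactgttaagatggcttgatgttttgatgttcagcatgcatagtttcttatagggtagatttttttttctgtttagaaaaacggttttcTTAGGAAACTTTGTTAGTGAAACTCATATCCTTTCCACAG
Hnrnpl exon inside intron 6: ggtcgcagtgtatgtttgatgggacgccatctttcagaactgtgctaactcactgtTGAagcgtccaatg

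Hnrnpl intron 7 (chr7:28818533-28818643, plus strand) is 111 bases long and 67.6% G or C, and 19 of the 20 bases that end 3 bases before its last base are pyrimidines. Hnrnpl intron 11 (chr7:28821274-28821391, plus strand) has 118 bases, 59.3% G or C and 15 of 20 pyrimidines. The other 3 introns are poorer in G and C. Hnrnpk intron 15 (chr13:58393775-58393852, minus strand) has 24.4% G or C and 13 of 20 pyrimidines. Hnrnpa2b1 intron 5 (chr6:51466223-51466302, minus strand) has 27.5% and 12 of 20. Hnrnpdl intron 6 (chr5:100036196-100036480, minus strand) has 33.7% and 13 of 20. All 5 lie between coding exons of the listed transcript. The Hnrnpl exon (chr7:28817335-28817404, plus strand) lies inside intron 6 and belongs to the decay transcript Hnrnpl-213. In human cells, HNRNPL protein is known to promote the inclusion of such an exon in its own transcript.

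Each file gave, for every listed intron, the reads inside it and the reads overlapping it, and subtracting the first from the second gave the spliced reads of that intron. Depth per library ran from 9820825 to 19700955 spliced reads and from 858362 to 5684308 intronic ones. A gene's level is its spliced reads summed over its listed introns, scaled as CPM (edgeR's library-scaled counts), and a level per junction divides by the number of listed introns so that genes can be compared. In bulk tumors, fewer cells that express a gene and less RNA per cell cannot be told apart. The epithelial markers Epcam and Cdh1 were at 1164 to 1951 and 233 to 578 CPM in PyMT-M and at 763 to 1441 and 163 to 272 CPM in 2208L. In AT3, Epcam was at 0 to 3.13 and Cdh1 at 1.27 to 2.89 CPM, and in T11 they were at 3.09 to 8.07 and 0 to 0.662 CPM. Epcam and Cdh1 were thus absent or nearly so in both models. The 9 measured epithelial markers summed to 232 to 512 CPM with H3B-8800 and 163 to 209 CPM with vehicle in AT3, without overlap. Krt8, 1 of them, was at 36.1 to 72.5 and 14.3 to 25.1 CPM there. In T11 the sums overlapped, at 138 to 161 CPM in the libraries labelled H3B-8800 and 102 to 274 CPM in those labelled vehicle. Skeletal muscle markers stood apart in 5 libraries, with summed levels of 480 and 278 CPM in PyMT-M H3B-8800 libraries 1 and 2, 4460 CPM in 2208L vehicle library 1, and 650 and 6524 CPM in the T11 libraries labelled H3B-8800 2 and vehicle 3. In the other 20 libraries the sum was at most 38.4 CPM. Summed B cell markers stood apart at 219 CPM in the T11 library labelled H3B-8800 2 and at 78.2 CPM in AT3 vehicle library 2. They also moved with treatment in 2208L, at 47.3 to 70.1 CPM with H3B-8800 and 3.32 to 7.05 CPM with vehicle, and these 2208L libraries were kept in all fits. In PyMT-M they were at 4.76 to 6.76 CPM with H3B-8800 and 2.32 to 4.57 CPM with vehicle. Summed levels of 9 macrophage markers did not overlap between the arms of 3 models: they were at 843 to 1292 CPM with H3B-8800 and 179 to 520 CPM with vehicle in PyMT-M, at 2495 to 2714 and 1253 to 2030 CPM in AT3, and at 2936 to 3576 and 302 to 1607 CPM in 2208L. In T11 they overlapped, at 1424 to 1638 CPM in the libraries labelled H3B-8800 and 1023 to 1673 CPM in those labelled vehicle, while T cell markers did not, at 9.90 to 122 and 2.30 to 4.58 CPM. The part of these cells in the results was not tested. In PyMT-M, AT3 and 2208L, introns called higher with H3B-8800 outnumbered those called lower, while in T11 19.9% of all introns tested were called lower and 0.719% higher. The T11 groups are therefore named by their labels, and a T11 change sets those labelled H3B-8800 over those labelled vehicle. A T11 change opposite to that of the other models and exchanged labels of the T11 groups cannot be told apart here. This holds for every T11 value, for the drug effect of 2208L minus T11 and for vehicle 2208L over T11.

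The levels per junction ordered the genes first by Hnrnpa2b1 in all 8 groups. In PyMT-M vehicle tumors, Hnrnpa2b1 was at 145 ± 6.57 CPM per junction (SD, n = 4). Hnrnpk followed at 62.2 ± 5.43, Hnrnpa1 at 50.7 ± 7.44, Hnrnpc at 49.5 ± 6.38 and Hnrnpu at 47.0 ± 6.92, and each of these lay within the summed SDs of the next. A lower step held Hnrnph1 at 31.8 ± 5.82, Hnrnpl at 26.6 ± 7.34, Hnrnpd at 24.8 ± 6.16 and Hnrnpm at 22.4 ± 1.17, also within the summed SDs of their neighbours. Hnrnpdl was lowest at 11.3 ± 1.28 CPM per junction. With H3B-8800 in PyMT-M, Hnrnpdl stood seventh at 25.1 ± 1.09, Hnrnph1 ninth at 19.1 ± 4.70 and Hnrnpm last at 17.3 ± 3.55 CPM per junction. Hnrnph1 and Hnrnpm lay within their summed SDs. The mean of Hnrnpm includes introns 3 and 4, which had 3.44 ± 3.81 and 4.45 ± 5.68 CPM in these tumors, against 14.1 to 24.4 over its other junctions. Hnrnpdl was also the lowest of the 10 in both 2208L and both AT3 groups, at 24.1 ± 1.69 and 15.6 ± 1.00 CPM per junction in 2208L H3B-8800 and vehicle tumors.

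**Figure D1:**
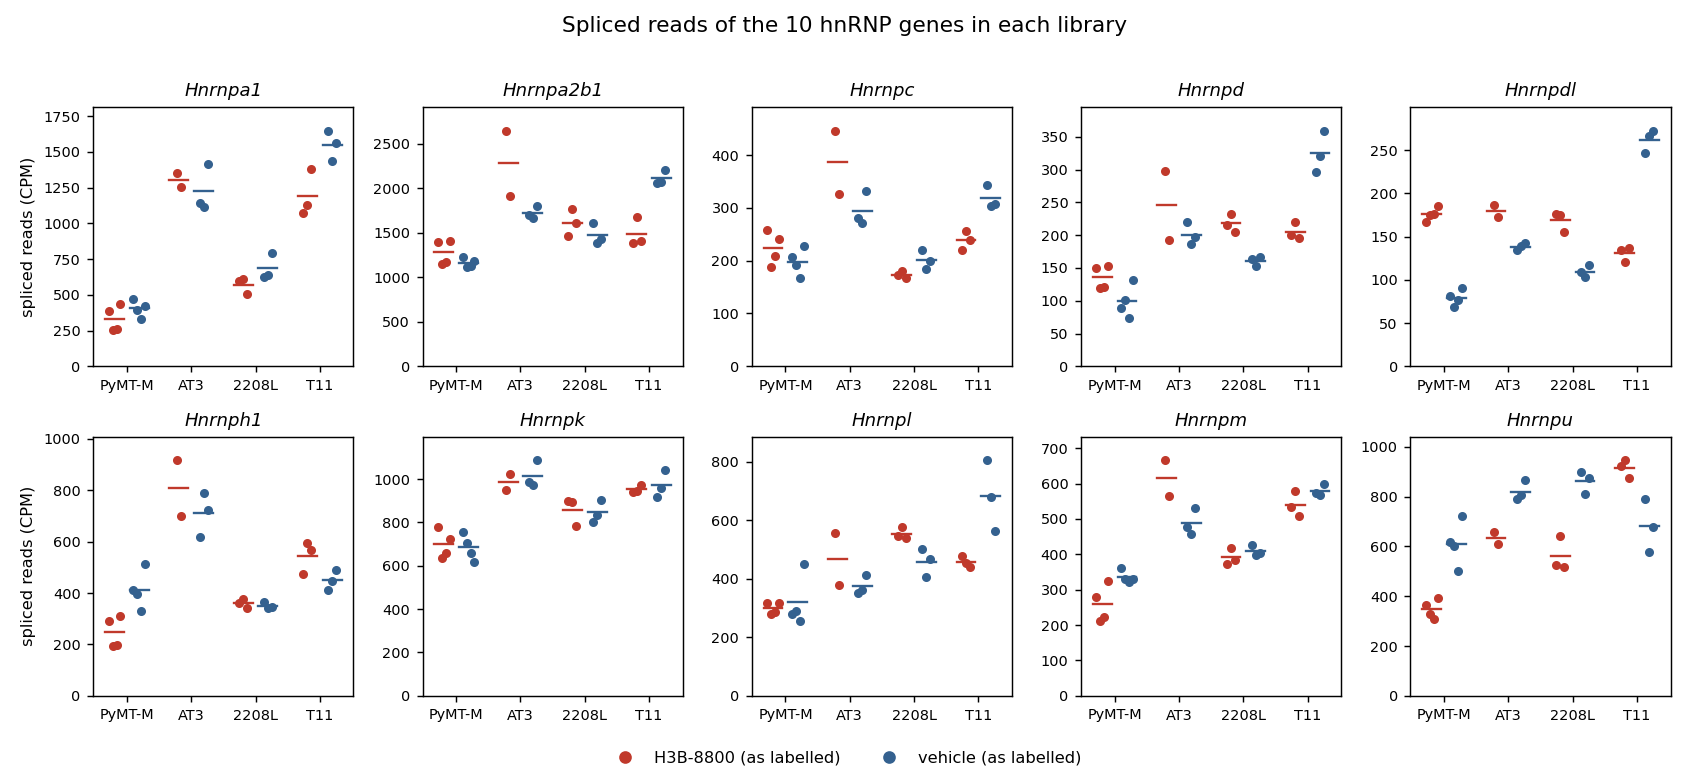
Spliced reads of each hnRNP gene in CPM (y axis, from 0) in every library by model (x axis), H3B-8800 left of vehicle; points are libraries and lines are means. Hnrnpdl sits between 167 and 186 CPM in the 4 PyMT-M H3B-8800 libraries and between 68.5 and 90.1 CPM in the 4 vehicle libraries, and Hnrnpu between 309 and 395 CPM against 501 and 721 CPM.

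In PyMT-M tumors, H3B-8800 moved the hnRNP genes in both directions: Hnrnpdl and Hnrnpd rose, and Hnrnpu, Hnrnph1 and Hnrnpm fell. Macrophage markers were higher in the same H3B-8800 libraries (843 to 1292 CPM, against 179 to 520 CPM with vehicle). With edgeR's quasi-likelihood test and Benjamini-Hochberg adjustment over 13001 genes, 5 of the 10 members passed an adjusted p of 0.05, 2 higher and 3 lower, where 24.8% of all genes passed, 10.2% higher and 14.6% lower. The median log2 change of the 10 was -0.03, against 0.02 over all genes. In 2208L, 2 of 10 passed, Hnrnpdl higher and Hnrnpu lower, where 10.3% of all genes passed, 4.67% higher and 5.67% lower. In AT3, none of 10 passed with edgeR, where 0.3% of all genes passed; 5 of them had an unadjusted p under 0.05, and 1 passed with DESeq2. In T11, 4 of 10 passed, all lower in the libraries labelled H3B-8800, where 11.7% of all genes passed and 5.07% were lower. Without the libraries with muscle or B cell transcripts, 3 passed in PyMT-M and 1 each in 2208L and T11. With only the libraries of a model in its fit, 3 passed in PyMT-M and none in T11, where 6 had an unadjusted p under 0.05 by edgeR. DESeq2 called 5 in PyMT-M, 2 in 2208L and 6 in T11. The fit takes its spread from all 8 groups, so where 1 of the 2 AT3 H3B-8800 libraries is left out, the lone library is assumed to vary like those of the other groups.

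**Figure D2:**
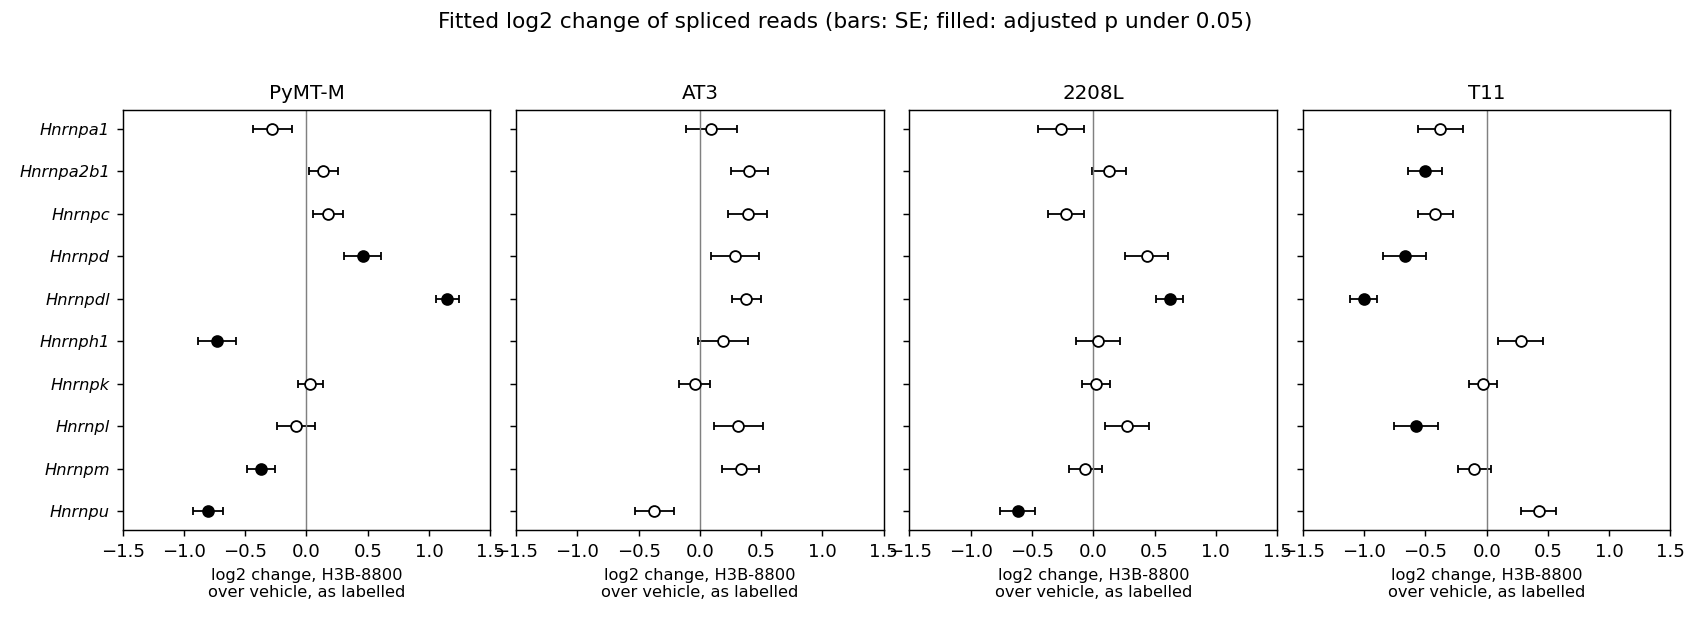
Fitted log2 change of spliced reads (x axis) of the 10 hnRNP genes (rows) in each model, as labelled H3B-8800 over labelled vehicle; bars are SEs and filled points passed an adjusted p of 0.05. Hnrnpdl lies at 1.15 in PyMT-M, 0.38 in AT3, 0.62 in 2208L and -1.0 in T11, and Hnrnpu at -0.81, -0.37, -0.62 and 0.42.

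Hnrnpdl encodes the hnRNP D-like protein, a relative of hnRNP D that binds AU-rich RNA and whose own transcript is known, in human cells, to be spliced at its 3′ end under the control of the protein. In PyMT-M it was at 167, 175, 176 and 186 CPM with H3B-8800, against 81.2, 68.5, 77.2 and 90.1 CPM with vehicle. The groups did not overlap, and the log2 change was 1.15 ± 0.09 (SE, adjusted p = 1.54e-07, edgeR), a ratio of means of 2.22. In 2208L it was at 177, 175 and 155 CPM with H3B-8800, against 109, 103 and 117 CPM with vehicle, a log2 change of 0.62 ± 0.11 (adjusted p = 0.0017). In AT3 it was at 187 and 173 CPM with H3B-8800, against 134, 139 and 142 CPM with vehicle. The AT3 groups did not overlap either, but the log2 change of 0.38 ± 0.12 missed the threshold in edgeR (adjusted p = 0.175) and passed it in DESeq2 (0.38, adjusted p = 0.0318). In T11 the direction was the opposite, with 135, 120 and 136 CPM in the libraries labelled H3B-8800 and 247, 266 and 273 CPM in those labelled vehicle, a log2 change of -1.0 ± 0.11 (adjusted p = 1.66e-05), which missed the threshold when T11 was fitted alone (-0.97, adjusted p = 0.0639). As labelled, H3B-8800 libraries of the 4 models lay between 120 and 187 CPM of Hnrnpdl and vehicle libraries between 68.5 and 273 CPM. Counted over all overlapping reads, intronic ones included, the change was 0.25 in PyMT-M (adjusted p = 0.129) and 0.07 in 2208L (adjusted p = 0.781), so both calls rest on spliced reads. Most of the intronic reads lay in intron 7, with a mean of 1307 per library, against 11.5 to 114 in the other introns of Hnrnpdl.

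Hnrnpd encodes hnRNP D (AUF1), which binds AU-rich elements and speeds the decay of many messenger RNAs. In PyMT-M it was at 151, 120, 120.8 and 153 CPM with H3B-8800, against 88.7, 101, 74.3 and 132 CPM with vehicle. Vehicle library 4 lay within the range of the H3B-8800 libraries, and the log2 change was 0.46 ± 0.15 (adjusted p = 0.0321). The call was lost without vehicle library 1 (0.46, adjusted p = 0.0585) or 3 (0.34, 0.105), or without H3B-8800 library 1 (0.41, 0.086) or 4 (0.40, 0.0843). It was also lost with only PyMT-M libraries in the fit (0.46, adjusted p = 0.0736) and without the libraries with muscle or B cell transcripts (0.51, 0.103). Over all overlapping reads, the change was -0.09 (adjusted p = 0.681). In 2208L the H3B-8800 libraries were at 216, 232 and 205 CPM and the vehicle libraries at 164, 153 and 166 CPM, which did not overlap, with a log2 change of 0.44 ± 0.18 that missed the threshold (adjusted p = 0.114) and passed it with only 2208L libraries in the fit (0.43, adjusted p = 0.0139). In T11, the libraries labelled H3B-8800 were at 200, 219 and 195 CPM and those labelled vehicle at 297, 320 and 360 CPM, a log2 change of -0.67 ± 0.18 (adjusted p = 0.0179). The T11 call was lost without the library labelled vehicle 3 (-0.59, adjusted p = 0.053) and without those labelled H3B-8800 1 (-0.65, 0.0592) or 3 (-0.60, 0.0765).

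Hnrnpu encodes the largest hnRNP, which binds RNA and the nuclear scaffold and takes part in chromatin structure and in splicing. In PyMT-M it was at 364, 328, 309 and 395 CPM with H3B-8800, against 620, 601, 501 and 721 CPM with vehicle. All 4 treated libraries lay below all 4 vehicle libraries, and the log2 change was -0.81 ± 0.12 (adjusted p = 0.000103). In 2208L it was at 525, 643 and 517 CPM with H3B-8800, against 900, 811 and 875 CPM with vehicle, a log2 change of -0.62 ± 0.14 (adjusted p = 0.0101). The 2208L call was lost without H3B-8800 library 1 (-0.57, adjusted p = 0.061) or 3 (-0.56, adjusted p = 0.0553), or without the libraries with muscle or B cell transcripts (-0.57, adjusted p = 0.104). In AT3, 658 and 609 CPM stood against 789, 805 and 866 CPM in vehicle tumors, with no overlap and a log2 change of -0.37 ± 0.16 (adjusted p = 0.327). In T11 the libraries labelled H3B-8800 were the higher ones, at 922, 946 and 876 CPM against 792, 577 and 679 CPM, with a log2 change of 0.42 ± 0.14 (adjusted p = 0.0558). DESeq2 called this T11 difference (0.41, adjusted p = 0.0363), and so did edgeR without the T11 library labelled vehicle 1 (0.54, adjusted p = 0.0205). It also passed without PyMT-M vehicle 1, 3 or 4, AT3 vehicle 1 or 2, or 2208L vehicle 1 or 2 (0.42 to 0.45, adjusted p of 0.0417 to 0.0499). In all 4 models the fitted changes of Hnrnpu and Hnrnpdl had opposite signs.

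Hnrnph1 encodes hnRNP H, which binds runs of G and sets the use of many alternative exons. In PyMT-M it was at 291, 194, 199 and 312 CPM with H3B-8800, against 413, 397, 329 and 512 CPM with vehicle, and the groups did not overlap. The log2 change was -0.73 ± 0.16 (adjusted p = 0.00218). Of the treated libraries with muscle transcripts, library 1 was the second highest and library 2 the lowest. In the other models Hnrnph1 did not pass: the log2 changes were 0.19 ± 0.20 in AT3, 0.04 ± 0.18 in 2208L and 0.28 ± 0.18 in T11 (adjusted p = 0.766, 0.929 and 0.348).

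Hnrnpm encodes hnRNP M, a splicing regulator that binds GU-rich RNA and is known for its part in the splicing switch of the epithelial to mesenchymal transition. In PyMT-M it was at 280, 211, 223 and 326 CPM with H3B-8800, against 361, 332, 321 and 329 CPM with vehicle. H3B-8800 library 4 lay within the vehicle range, and the log2 change was -0.37 ± 0.12 (adjusted p = 0.0248). Adjusted p lay near the threshold, and the call was lost without any one of 9 libraries. Of PyMT-M these were vehicle libraries 1 (-0.29, adjusted p = 0.118) and 2 (-0.34, 0.0744) and H3B-8800 libraries 2 (-0.28, 0.0951) and 3 (-0.30, 0.0935). The other 5 were 2208L vehicle libraries 1 (adjusted p = 0.052) and 2 (0.0526), AT3 vehicle libraries 1 (0.0538) and 2 (0.0514) and the T11 library labelled H3B-8800 3 (0.0514). It was also lost without the libraries with muscle or B cell transcripts (-0.24, adjusted p = 0.308), with only PyMT-M libraries in the fit (-0.37, 0.0927), with DESeq2's size factors (-0.34, 0.0517) and with no filter on low counts (-0.34, 0.0512). The PyMT-M change had the opposite sign to that in AT3, where Hnrnpm was at 666 and 565 CPM with H3B-8800 and 478, 457 and 530 CPM with vehicle, a log2 change of 0.33 ± 0.15 that did not pass (adjusted p = 0.346).

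The A and B proteins hnRNP A1 and A2/B1 bind UAG motifs and are the classic repressors of exon inclusion. Hnrnpa1 did not pass in any of the 4 models by spliced reads, with log2 changes of -0.28 ± 0.16 in PyMT-M, 0.09 ± 0.21 in AT3, -0.26 ± 0.19 in 2208L and -0.38 ± 0.19 in T11. Over all overlapping reads it passed in PyMT-M (-0.49, adjusted p = 0.0271). Its processed pseudogenes can share reads with it, and how such reads were assigned is not given in the sources used here, so its level is uncertain. Hnrnpa2b1 passed in T11 only, at 1379, 1681 and 1408 CPM in the libraries labelled H3B-8800 against 2063, 2068 and 2207 CPM in those labelled vehicle (log2 change -0.50 ± 0.14, adjusted p = 0.0219). That call was lost without the T11 libraries labelled vehicle 3 (-0.47, adjusted p = 0.0501), H3B-8800 1 (-0.45, 0.0914) or H3B-8800 3 (-0.43, 0.106). In edgeR it was also lost over all overlapping reads (-0.40, adjusted p = 0.17) and with the median over introns as the gene count (-0.40, 0.123). The same held with only T11 libraries in the fit (-0.47, 0.22) and without the libraries with muscle or B cell transcripts (-0.52, 0.129). In PyMT-M its log2 change was 0.14 ± 0.12 (adjusted p = 0.421), and over all overlapping reads it was -0.44 (adjusted p = 0.0405), the opposite sign. Intron 9 of Hnrnpa2b1 held a mean of 11220 reads inside it per library, against 3.12 to 243 in the other listed introns. In AT3 the change of 0.40 ± 0.15 missed the threshold (adjusted p = 0.259) and had an adjusted p of 0.0486 without H3B-8800 library 2 (0.62), a fit with 1 treated AT3 library whose spread comes from the other groups.

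Hnrnpl encodes hnRNP L, which binds CA repeats and represses or promotes exons according to position. By the edgeR fit of all libraries it passed in T11 only, at 477, 455 and 441 CPM in the libraries labelled H3B-8800 against 806, 680 and 565 CPM in those labelled vehicle (log2 change -0.58 ± 0.18, adjusted p = 0.0409). The call was lost without any one of 12 libraries. Of T11 these were the libraries labelled vehicle 1 (-0.44, adjusted p = 0.132) and 2 (-0.58, 0.074) and H3B-8800 1 (-0.61, 0.0838), 2 (-0.55, 0.114) and 3 (-0.52, 0.131). The other 7 were PyMT-M vehicle 1 and 2, AT3 vehicle 1 and 2, 2208L vehicle 1 and 2208L H3B-8800 1 and 3, with adjusted p of 0.0502 to 0.0557. In PyMT-M, AT3 and 2208L its log2 changes were -0.09 ± 0.16, 0.32 ± 0.20 and 0.27 ± 0.18. The 2208L change passed in edgeR with the median over introns as the gene count (0.39, adjusted p = 0.0413). Hnrnpc, which encodes the hnRNP C tetramer that binds runs of U and guards against the use of cryptic exons, did not pass in any model by the edgeR fit of all libraries, with changes of 0.17 ± 0.12, 0.39 ± 0.16, -0.22 ± 0.14 and -0.42 ± 0.14 in PyMT-M, AT3, 2208L and T11. Its T11 change passed in DESeq2 (-0.43, adjusted p = 0.0381) and in edgeR without AT3 H3B-8800 library 1 or 2 (-0.42, adjusted p = 0.0403 each). Hnrnpk, which encodes a KH-domain protein that binds C-rich RNA and DNA, had the smallest changes: they lay between -0.04 ± 0.13 and 0.03 ± 0.10 in the 4 models.

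Read by junction, the changes within a gene were not even along the transcript. In PyMT-M tumors, Hnrnph1 had 8.15 ± 3.39 CPM of spliced reads over intron 1 with H3B-8800 and 8.95 ± 2.82 with vehicle, and 22.6 ± 3.95 against 46.6 ± 17.8 CPM over intron 13 (SD, n = 4 each). The ratio of means was 0.911 at the first junction and 0.485 at the last, and it lay between 0.463 and 0.911 over the 13 junctions. Hnrnpu showed a like slope, with a ratio of 0.76 over intron 1 and 0.422 over intron 13. Hnrnpl had ratios above 1 over introns 1 to 6 and under 1 over introns 9 to 12, at 1.37 over intron 1 and 0.728 over intron 12, and its lowest ratio, 0.585, was over intron 7. Hnrnpdl was higher over all 7 junctions, by ratios of 1.84 to 2.53, with the highest over intron 1 and the lowest over intron 7. A fall from the first to the last listed junction was shared by every member in PyMT-M. It ran from 0.898 to 0.733 in Hnrnpa1 and from 0.786 to 0.621 in Hnrnpm. In AT3 the ratio rose instead in every member, from 0.961 to 1.483 in Hnrnpl. The slope is thus not particular to the genes named, and whether other genes share it was not tested. The SDs of the vehicle group were widest at the 3′ end of Hnrnph1, Hnrnpu and Hnrnpl, and these ratios carry no test.

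**Figure D3:**
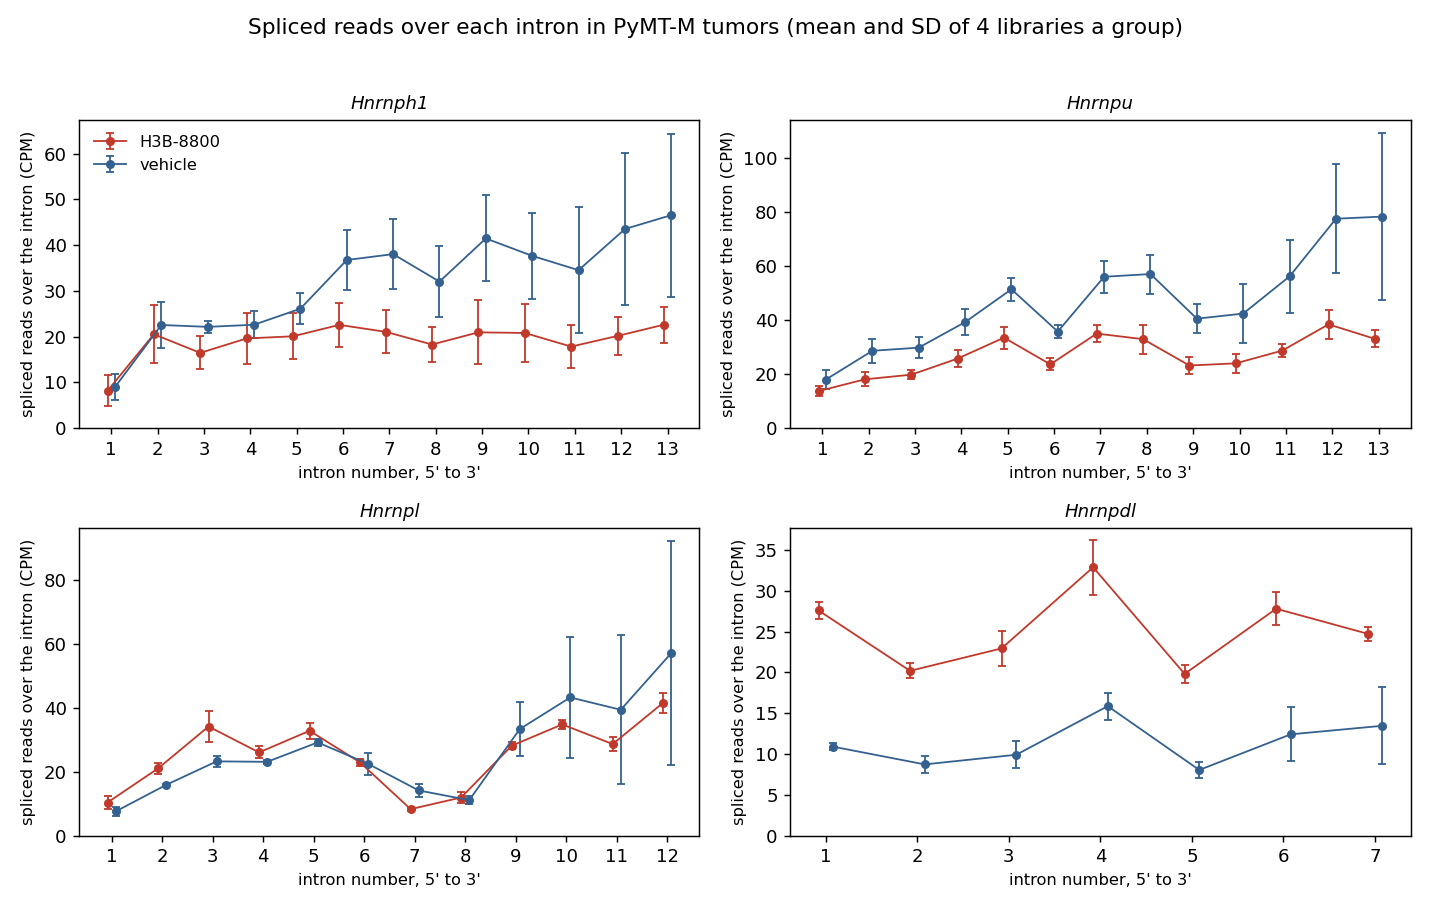
Mean spliced reads over each intron in CPM (y axis, from 0) against intron number from 5′ to 3′ (x axis) for 4 hnRNP genes in PyMT-M tumors, H3B-8800 in red and vehicle in blue; bars are SDs of 4 libraries. The lines of Hnrnph1 start close together and differ at introns 3 (16.4 against 22.1 CPM) and 5 (20.1 against 26.1 CPM). They lie further apart from intron 6 on (22.6 against 36.8 CPM there). Those of Hnrnpdl stay apart throughout, and Hnrnpl dips at intron 7 with H3B-8800.

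The drug effect itself was compared between models by an interaction contrast. The effect on Hnrnpdl was larger in PyMT-M than in AT3 by 0.77 ± 0.15 on the log2 scale (adjusted p = 0.0168, edgeR), the only member of 10 that passed, where 1.1% of all genes passed. It missed the threshold with only the libraries of these models (0.84, adjusted p = 0.0625), without the libraries with muscle or B cell transcripts (0.89, 0.0796) and over all overlapping reads (0.22, 0.579). Hnrnph1 and Hnrnpm differed by -0.92 ± 0.25 and -0.70 ± 0.19 and missed the threshold (adjusted p = 0.0765 and 0.0679), and both passed in DESeq2 (-0.89 and -0.67, adjusted p = 0.0357 and 0.0274). In edgeR both passed without PyMT-M H3B-8800 library 4 (-1.05 and -0.83, adjusted p = 0.033 and 0.017) or AT3 H3B-8800 library 2 (-1.1 and -0.82, 0.0422 and 0.0436, with 1 treated AT3 library left and the spread of the other groups), Hnrnph1 without PyMT-M vehicle library 3 (-1.01, 0.0441), and Hnrnpm without the T11 library labelled vehicle 1 (-0.70, 0.0453). Between PyMT-M and 2208L no member passed in edgeR, where 1.92% of all genes did; 3 had an unadjusted p under 0.05, and DESeq2 called Hnrnpdl (0.55, adjusted p = 0.00236). Its edgeR difference was 0.53 ± 0.14 (adjusted p = 0.0559) and passed without PyMT-M vehicle library 4 (0.59, adjusted p = 0.034), the T11 library labelled vehicle 1 (0.53, 0.0356) or AT3 H3B-8800 library 1 (0.53, 0.0476) or 2 (0.53, 0.0473). Hnrnph1 passed without PyMT-M H3B-8800 library 4 (-0.90, adjusted p = 0.0447) and over all overlapping reads (-0.89, 0.0387). Between 2208L and T11, 5 of 10 members differed, 4 higher and 1 lower, where 16.2% of all genes did, 6.88% higher and 9.32% lower: Hnrnpdl by 1.63 ± 0.15, Hnrnpd by 1.1 ± 0.25, Hnrnpl by 0.85 ± 0.25 and Hnrnpa2b1 by 0.63 ± 0.19, and Hnrnpu by -1.04 ± 0.20. This contrast was added after the data were seen. The difference of Hnrnpl was lost without 2208L vehicle library 2 (0.77, adjusted p = 0.0519) or 2208L H3B-8800 library 2 (0.82, 0.0501). That of Hnrnpa2b1 was lost without 2208L vehicle 2 or 3, 2208L H3B-8800 2 or 3, or the T11 libraries labelled vehicle 3 or H3B-8800 1 or 3 (0.57 to 0.63, adjusted p of 0.0541 to 0.0768). Without the libraries with muscle or B cell transcripts, 2 of 10 passed.

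Among vehicle tumors in the same host strain, PyMT-M had less hnRNP transcript than AT3. In this comparison 9 of 10 members were lower in PyMT-M, where 28% of all genes were lower and 60% changed in either direction. Hnrnpa1 differed most, at 470, 397, 328 and 426 CPM in PyMT-M against 1146, 1112 and 1415 CPM in AT3 (log2 difference -1.59 ± 0.17, adjusted p = 1.01e-07). Hnrnpd followed at -1.02 ± 0.16 and Hnrnpdl at -0.81 ± 0.10 (adjusted p = 1.53e-05 and 5.67e-07). Hnrnpl alone did not pass (-0.23 ± 0.17, adjusted p = 0.241), and it passed without PyMT-M vehicle library 4 (-0.44, adjusted p = 0.0115) and with the median over introns as the gene count (-0.38, 0.0047). In vehicle tumors of 2208L over the T11 libraries labelled vehicle, 7 of 10 were lower, where 22.5% of all genes were lower and 45.6% changed. Hnrnpdl was at 109, 103 and 117 CPM in 2208L against 247, 266 and 273 CPM in the T11 libraries labelled vehicle (log2 difference -1.26 ± 0.11, adjusted p = 7.1e-09), and Hnrnpa1 at 624, 639 and 795 against 1650, 1437 and 1565 CPM (-1.18 ± 0.19, adjusted p = 3.18e-05). Hnrnpu was the only member with a positive difference (0.34 ± 0.14, adjusted p = 0.0578), and it passed in DESeq2 (0.34, adjusted p = 0.0476) and in edgeR without the T11 library labelled vehicle 1 (0.46, 0.015) or PyMT-M vehicle library 3 or 4 (0.34, 0.0448 and 0.0434). The difference of Hnrnpl, -0.58 ± 0.18, was lost without that T11 library (-0.44, adjusted p = 0.0621). Epithelial markers were high in PyMT-M and 2208L and low in AT3 and T11, and their part in these differences was not tested.

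The introns of the 10 genes were then read for the share of reads inside them. Of the 95 listed, 81 had enough reads to be tested, each relative to the spliced reads of its gene. In PyMT-M, 38 were higher and 7 lower with H3B-8800, where 54.6% of all 52042 introns tested were higher and 5.58% lower. The median log2 change over the 81 was 1.29, against 1.57 over all introns. In AT3, 6 were higher and none lower, where 19.8% and 0.304% of all introns were, and in 2208L 8 were higher and 8 lower, where 21.2% and 0.519% were. Medians were 0.62 and 0.50 over the hnRNP introns in AT3 and 2208L, against 1.1 and 1.07 over all introns. In T11, 1 was higher and 6 lower in the libraries labelled H3B-8800, where 0.719% and 19.9% were. Introns called higher in both PyMT-M and 2208L numbered 7, of 38 and 8, and those called lower in both numbered 5, of 7 and 8. All 6 introns called higher in AT3 were among the 38 of PyMT-M, and so were all 6 called lower in T11. Joint calls were not counted over all tested introns, so whether these overlaps are particular to the hnRNP introns was not tested. In AT3, 17 introns had an unadjusted p under 0.05 in either direction, and DESeq2 called 8 higher and 0 lower. Without the libraries with muscle or B cell transcripts, 5 were called in 2208L, 2 higher and 3 lower, and none in T11, where 9 had an unadjusted p under 0.05 by edgeR. In PyMT-M 35 were called. An intron that holds an annotated exon can gain reads from another transcript: 39 of the 81 hold or overlap one, and all 7 introns called lower in PyMT-M are among them. Over all tested introns, 8.09% of those that hold or overlap an annotated exon were called lower in PyMT-M, against 3.75% of those that do not.

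**Figure D4:**
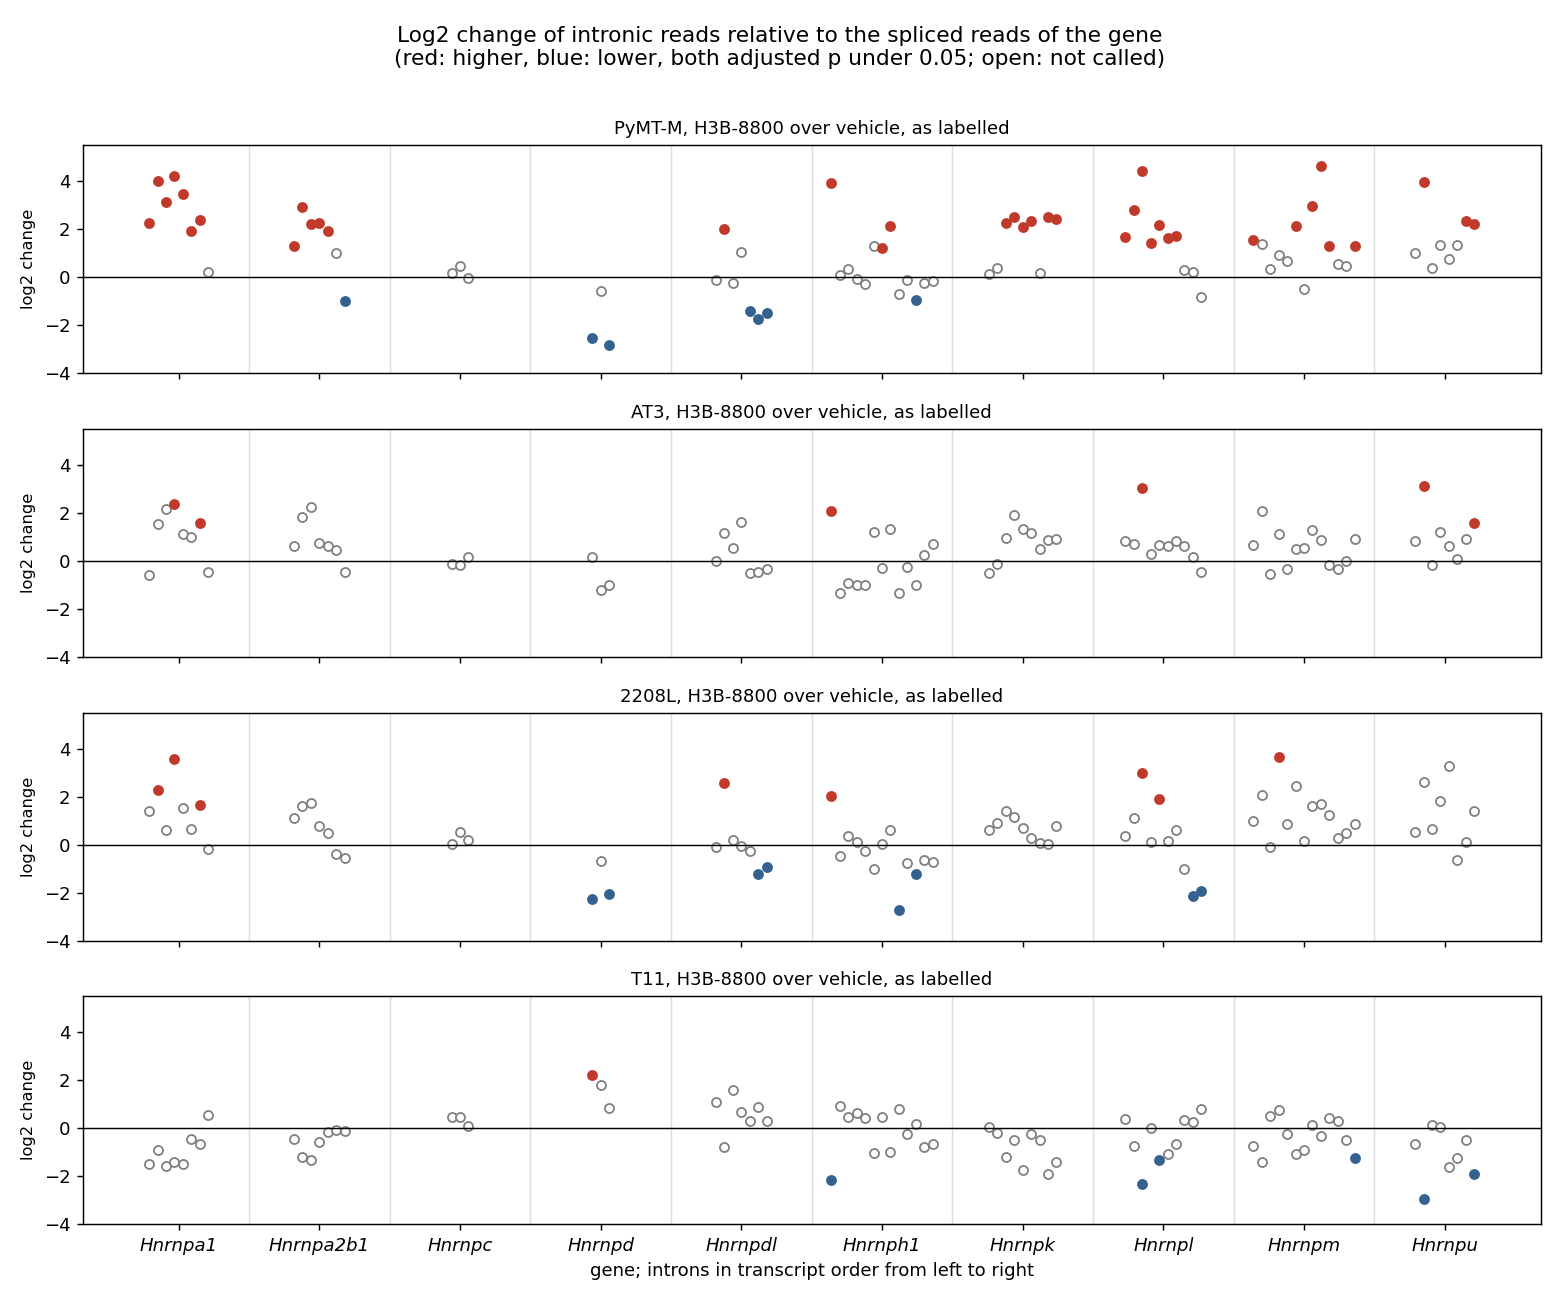
Log2 change of the reads inside each tested intron relative to the spliced reads of its gene (y axis) in the 4 models, introns of each gene from 5′ to 3′ (x axis); red and blue points passed an adjusted p of 0.05, open points did not. In PyMT-M, 7 of 8 introns of Hnrnpa1 and 6 of 9 of Hnrnpk are red, and 2 of 3 of Hnrnpd and 3 of 7 of Hnrnpdl are blue.

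By gene, Hnrnpa1 had 7 of 8 tested introns higher in PyMT-M with a median log2 change of 2.75, Hnrnpl 7 of 10 with 1.67, Hnrnpk 6 of 9 with 2.28, Hnrnpa2b1 5 of 7 with 1.93 and Hnrnpm 6 of 13 with 1.3. Hnrnph1 and Hnrnpu each had 3 higher, of 13 and 8. The 3 tested introns of Hnrnpc did not pass, with a median change of 0.16. Hnrnpd had none higher and 2 of 3 lower, and Hnrnpdl had 1 of 7 higher and 3 lower. Introns of up to 120 bases were called higher in 12 of 16 cases in the hnRNP genes, against 78% of all tested introns of that length, and those over 1000 bases in 9 of 24 cases, against 46.4%. Of those over 300 and up to 1000 bases, 9 of 27 hnRNP introns were higher, against 66.7% of all.

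Hnrnpl carried introns with some of the largest changes. Intron 5 (chr7:28815196-28815279, 84 bases, plus strand, no annotated exon) held 22.8, 16.9, 14.7 and 19.5% of its reads in PyMT-M H3B-8800 tumors, against 1.37, 0.732, 1.24 and 1.47% in vehicle tumors. In 2208L it held 4.66, 2.21 and 3.01% against 0, 0.583 and 0.873%. The log2 changes relative to the gene were 4.42 ± 0.64 and 2.98 ± 0.79 (adjusted p = 7.78e-07 and 0.00741), and the 2208L call was lost without vehicle library 1, which held no read in it and is among those with muscle transcripts (2.40, adjusted p = 0.0574), and without all libraries with muscle or B cell transcripts (2.40, 0.108). In AT3 the 2 treated libraries stood apart from each other, at 2.47 and 11.2% against 0.76, 0.911 and 0.95%. Over all introns these 2 libraries were at 14.2 and 20.4%. The AT3 change of 3.05 ± 0.79 (adjusted p = 0.00635) was lost without H3B-8800 library 2 (1.02, adjusted p = 0.618). In T11 it was lower in the libraries labelled H3B-8800, at 0.622, 1.14 and 1.52% against 1.43, 8.68 and 6.59%, a change of -2.34 ± 0.67 (adjusted p = 0.0111). This call was lost without the T11 libraries labelled vehicle 2 (-1.80, adjusted p = 0.0992), H3B-8800 1 (-2.10, 0.0656) or H3B-8800 2 (-2.31, 0.0507), and without the libraries with muscle or B cell transcripts (-2.19, 0.118). Over all introns, the T11 libraries labelled vehicle were at 11.5, 18.1 and 13.6%.

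Intron 7 of Hnrnpl, the short GC-rich intron printed above, is part of an exon in the coding transcript Hnrnpl-209. It held 78.8, 82.2, 77.6 and 77.4% of its reads in PyMT-M H3B-8800 tumors, against 37.0, 29.9, 36.4 and 30.04% in vehicle tumors, a log2 change of 2.17 ± 0.31 (adjusted p = 7.08e-07). In 2208L it held 69.3, 68.1 and 71.1% against 30.1, 30.1 and 25.9%, a change of 1.92 ± 0.36 (adjusted p = 0.000374). In AT3 the vehicle tumors already held 52.6, 57.1 and 52.9%, and the H3B-8800 tumors 68.6 and 70.2%. The AT3 groups did not overlap, and the change of 0.65 ± 0.38 did not pass (adjusted p = 0.228). In T11 it held 35.1, 37.6 and 34.7% in the libraries labelled H3B-8800 and 59.2, 75.2 and 70.8% in those labelled vehicle, a change of -1.34 ± 0.35 (adjusted p = 0.00563), which missed the threshold without the libraries with muscle or B cell transcripts (-1.31, adjusted p = 0.0635). Intron 11, of nearly the same length and chosen after its values were seen, had another pattern: its log2 change was 0.21 ± 0.65 in PyMT-M and -2.15 ± 0.79 in 2208L (adjusted p = 0.791 and 0.0458).

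Intron 6 of Hnrnpl (chr7:28815353-28818460, 3108 bases), which holds the exon with the early stop codon printed above, was at 89.3, 88.7, 86.5 and 88.4% in PyMT-M H3B-8800 tumors, against 76.7, 62.3, 80.0 and 72.9% in vehicle tumors. The log2 change was 1.44 ± 0.37 (adjusted p = 0.00117). The reads inside it cannot be divided here between that exon and the rest of the intron. In AT3, 2208L and T11 the changes were 0.28 ± 0.47, 0.09 ± 0.42 and 0.01 ± 0.42, and none passed. Intron 4 (chr7:28814288-28815098) was at 37.4 to 47.3% in PyMT-M H3B-8800 tumors and 6.57 to 13.7% in vehicle tumors, a change of 2.81 ± 0.46 (adjusted p = 4.78e-06).

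In Hnrnph1, intron 1 (chr11:50377803-50378290, plus strand), which lies in the 5′ UTR of the listed transcript, held 51.0, 55.4, 50.7 and 43.0% of its reads in PyMT-M H3B-8800 tumors, against 7.41, 2.70, 8.86 and 21.4% in vehicle tumors. In 2208L it held 28.6, 24.4 and 28.7% against 4.92, 6.56 and 15.9%, and in AT3 13.4 and 29.5% against 5.60, 6.22 and 6.55%. The groups did not overlap in any of these models, and the log2 changes were 3.91 ± 0.53, 2.01 ± 0.61 and 2.08 ± 0.63 in PyMT-M, 2208L and AT3 (adjusted p = 2.86e-07, 0.0165 and 0.0174). The 2208L call was lost without vehicle library 1 (1.62, adjusted p = 0.103) or 2 (1.91, 0.0548). The AT3 call was lost without vehicle library 3 (1.99, adjusted p = 0.0662) or H3B-8800 library 2 (0.81, 0.613). In T11 the libraries labelled H3B-8800 held 5.18, 4.32 and 6.89%, against 11.7, 24.5 and 26.8% in those labelled vehicle (-2.15 ± 0.57, adjusted p = 0.00633). Without the libraries with muscle or B cell transcripts, the calls in 2208L (1.61, adjusted p = 0.162), AT3 (2.02, 0.0606) and T11 (-1.77, 0.135) were lost. Introns 4 and 5 of Hnrnph1, at 45.2 to 75.1% and 31.6 to 66.3% in PyMT-M vehicle tumors, did not pass in any model. Intron 11 was lower in PyMT-M and 2208L, by log2 changes of -0.96 ± 0.34 and -1.23 ± 0.40 (adjusted p = 0.0164 and 0.0259). The PyMT-M call was lost without H3B-8800 library 1 (-0.81, adjusted p = 0.064), and the 2208L call without vehicle library 3 or any 1 of the 3 H3B-8800 libraries (-1.33 to -1.1, adjusted p of 0.0546 to 0.0907).

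**Figure D5:**
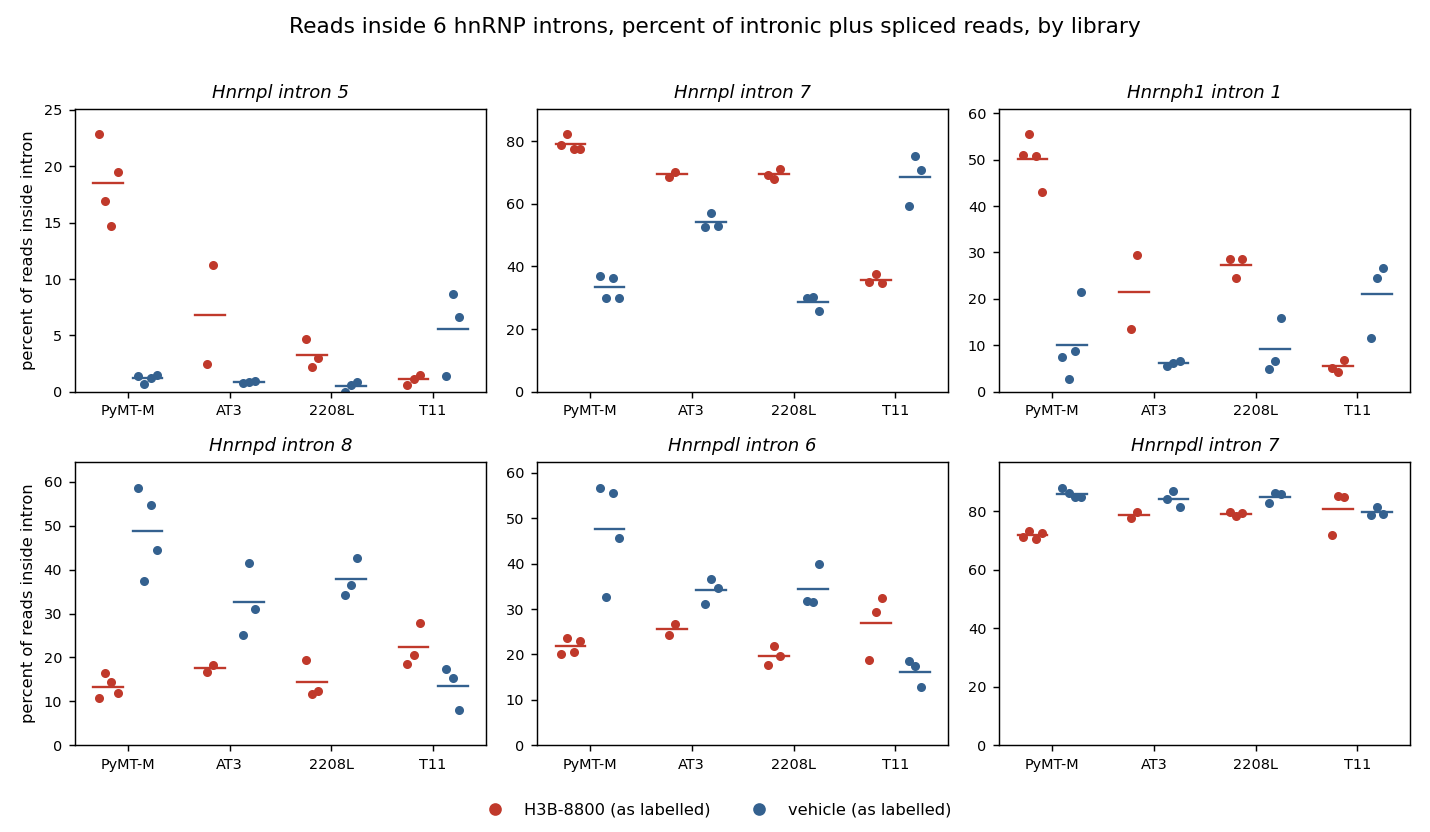
Percent of reads inside 6 hnRNP introns (y axis, from 0, intronic over intronic plus spliced reads) in every library by model (x axis), H3B-8800 left of vehicle; points are libraries and lines are means. Hnrnpl intron 7 sits at 77.4 to 82.2% in PyMT-M H3B-8800 tumors and 29.9 to 37.0% in vehicle tumors, while Hnrnpd intron 8 sits at 10.8 to 16.4% and 37.3 to 58.7%.

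Of the 7 introns called lower in PyMT-M, 5 belong to Hnrnpd and Hnrnpdl, and 3 of the 7 lie in a 3′ UTR. Among the 81 tested hnRNP introns, 5 lie in a 3′ UTR. Calls in 3′ UTR introns were not counted over all tested introns, so a link to the 3′ UTR was not tested. Intron 8 of Hnrnpd (chr5:99961334-99962514, minus strand) lies in the 3′ UTR and holds 2 annotated exons of decay transcripts. It held 10.8, 16.4, 14.4 and 11.9% of its reads in PyMT-M H3B-8800 tumors, against 58.7, 37.3, 54.7 and 44.5% in vehicle tumors (log2 change -2.84 ± 0.38, adjusted p = 2.01e-07). In 2208L tumors it held 19.5, 11.7 and 12.4% against 34.3, 36.5 and 42.6% (-2.05 ± 0.42, adjusted p = 0.000917). In AT3 it held 16.8 and 18.3% against 25.1, 41.6 and 31.0%, which did not overlap and did not pass (-1.0 ± 0.47, adjusted p = 0.126). In T11 the libraries labelled H3B-8800 were higher, at 18.5, 20.6 and 27.8% against 17.3, 15.2 and 8.03%, and did not pass (0.84 ± 0.41, adjusted p = 0.143), but did without the library labelled vehicle 1 (1.22, adjusted p = 0.0422).

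In Hnrnpdl, intron 6, printed above, held 20.1, 23.5, 20.5 and 23.0% of its reads in PyMT-M H3B-8800 tumors, against 56.7, 32.6, 55.5 and 45.7% in vehicle tumors (log2 change -1.74 ± 0.36, adjusted p = 0.000105). In 2208L it held 17.7, 21.8 and 19.7% against 31.8, 31.5 and 40% (-1.22 ± 0.41, adjusted p = 0.0313). Intron 7 (chr5:100034985-100036103, minus strand), in the 3′ UTR with 3 annotated exons inside it, held 71.4, 73.1, 70.5 and 72.4% in PyMT-M H3B-8800 tumors, against 88.0, 86.1, 85.0 and 84.9% in vehicle tumors (-1.51 ± 0.28, adjusted p = 3.59e-05). In 2208L the change of intron 7 was -0.95 ± 0.32 (adjusted p = 0.0332). The changes of introns 6 and 7 are relative to the spliced reads of Hnrnpdl, which rose by ratios of means of 2.22 in PyMT-M and 1.54 in 2208L. The lower introns and the gene's rise thus share reads. Both 2208L calls sat near the threshold. That of intron 6 was lost without vehicle library 1 or 3 or any 1 of the 3 H3B-8800 libraries (adjusted p of 0.0534 to 0.109), with changes of -1.31 to -1.04. That of intron 7 was lost without any 1 of the 6 libraries of 2208L (adjusted p of 0.0607 to 0.0914), with changes of -1.03 to -0.91. Without the libraries with muscle or B cell transcripts, the adjusted p was 0.079 for intron 6 and 0.0973 for intron 7. Intron 2 of Hnrnpdl, an intron of 83 bases with no annotated exon, went the other way in the same tumors, at 8.87 to 11.1% with H3B-8800 and 0.909 to 4.96% with vehicle in PyMT-M (2.01 ± 0.64, adjusted p = 0.00743). Intron 9 of Hnrnpa2b1 (chr6:51461434-51463410), also in the 3′ UTR, was also called lower, at 69.9 to 71.8% with H3B-8800 and 77.4 to 82.9% with vehicle in PyMT-M (-0.97 ± 0.24, adjusted p = 0.000767).

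Short introns without an annotated exon rose in Hnrnpa1 and Hnrnpu. Intron 4 of Hnrnpa1 (chr15:103242114-103242205, 92 bases, plus strand) held 16.4, 14.2, 20.3 and 11.95% of its reads in PyMT-M H3B-8800 tumors, against 0.75, 0.483, 1.85 and 0.923% in vehicle tumors (log2 change 4.22 ± 0.62, adjusted p = 9.56e-07). The 2208L values were 2.48, 2.17 and 2.94% against 0, 0.344 and 0.224% (3.56 ± 0.82, adjusted p = 0.00263), and in AT3 2.21 and 5.59% against 0.462, 1.45 and 0.424% (2.39 ± 0.70, adjusted p = 0.0142). The AT3 call was lost without vehicle library 1 (2.11, adjusted p = 0.0827) or 3 (2.12, 0.0745) or H3B-8800 library 2 (1.54, 0.317). Intron 2 of Hnrnpu (chr1:178335956-178336046, 91 bases, minus strand) held 9.87, 7.32, 8.91 and 7.96% in PyMT-M H3B-8800 tumors, against 0.358, 0.45, 0.308 and 1.60% in vehicle tumors (3.97 ± 0.87, adjusted p = 0.000221). In 2208L it held 2.97, 4.16 and 1.87% against 0.59, 0.459 and 0.491%, and its change of 2.63 ± 1.02 missed the threshold (adjusted p = 0.0595). It passed in DESeq2 (2.70, adjusted p = 0.0254), with only 2208L libraries in the fit (2.62, 0.0192), and without the T11 library labelled vehicle 1, PyMT-M vehicle 4, AT3 vehicle 3 or AT3 H3B-8800 1 (2.62 or 2.63, 0.0381 to 0.0497). In AT3 it held 1.37 and 6.21% against 0, 0 and 1.28%, a change of 3.11 ± 1.11 (adjusted p = 0.0425). The AT3 call was lost without vehicle library 1 (2.55, adjusted p = 0.167) or 2 (2.58, 0.103), H3B-8800 library 2 (0.96, 0.811), any 1 of the 4 PyMT-M H3B-8800 libraries (3.11, 0.0522 to 0.0553) or the libraries with muscle or B cell transcripts (2.57, 0.168). In T11 the libraries labelled H3B-8800 held 0.28, 0.0963 and 0.197%, against 0, 2.19 and 2.31% in those labelled vehicle. The T11 change of -2.97 ± 1.03 (adjusted p = 0.0362) rested on 0 to 13 reads inside the intron per library. It was lost without the T11 libraries labelled vehicle 2 or 3 or any 1 labelled H3B-8800 (-3.30 to -2.54, adjusted p of 0.0673 to 0.139).

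In Hnrnpm, Hnrnpk and Hnrnpa2b1, introns that rose in PyMT-M stood at very different levels. Intron 16 of Hnrnpm (chr17:33646660-33648812, minus strand) was at 77.3, 84.6, 76.5 and 76.4% in PyMT-M H3B-8800 tumors, against 58.8, 49.6, 56.8 and 55.4% in vehicle tumors (log2 change 1.31 ± 0.33, adjusted p = 0.000854). In T11 it was at 32.2, 33.2 and 40.5% in the libraries labelled H3B-8800, against 44.3, 64.3 and 52.1% in those labelled vehicle (-1.22 ± 0.38, adjusted p = 0.0178). The T11 call was lost without the libraries labelled vehicle 2 (-0.95, adjusted p = 0.119), H3B-8800 1 (-1.13, 0.0822) or H3B-8800 2 (-1.19, 0.0714), and without the libraries with muscle or B cell transcripts (-1.33, 0.0522). Intron 15 of Hnrnpk, printed above, was at 2.92, 1.41, 2.88 and 2.93% in PyMT-M H3B-8800 tumors, against 0.57, 0.153, 0.839 and 0.185% in vehicle tumors (2.5 ± 0.75, adjusted p = 0.00477). Intron 5 of Hnrnpa2b1, also printed above, was at 0.51 to 1.45% with H3B-8800 and 0.101 to 0.374% with vehicle in PyMT-M (2.25 ± 0.68, adjusted p = 0.00497). Hnrnpk intron 15 had a mean of 7.8 reads inside it per library and Hnrnpa2b1 intron 5 a mean of 12.6.

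A further 5 introns of Hnrnpm, Hnrnpk, Hnrnpu and Hnrnph1, picked by the naming rule given below, were called higher by edgeR in PyMT-M and in no other model. Other member introns share this trait: Hnrnpk had 6 introns called higher in PyMT-M and 0 called in AT3, 2208L and T11. Of the 38 member introns called higher in PyMT-M, 6 were also called higher in AT3, 7 in 2208L and 4 in both. Over all tested introns, 54.6% were called higher in PyMT-M, 19.8% in AT3 and 21.2% in 2208L. No member intron differed in drug effect between PyMT-M and AT3 by edgeR, so a call in PyMT-M alone shows no difference between these models. In PyMT-M, intron 12 of Hnrnpm (chr17:33658466-33658869, minus strand) held 7.29, 5.28, 10.5 and 4.91% with H3B-8800, against 0.181, 0.885, 0 and 0% with vehicle. Its log2 change was 4.65 ± 0.95 (adjusted p = 9.76e-05). Its neighbour intron 11 (chr17:33658915-33660212) held 13.1, 16.8, 10.3 and 13.6% against 2.11, 1.16, 2.38 and 2.47% (2.97 ± 0.54, adjusted p = 2.35e-05). The arms did not overlap in either intron, and neither passed in AT3, 2208L or T11. Intron 11 of Hnrnpk (chr13:58394786-58395164, minus strand) held 3.14, 2.21, 3.39 and 1.94% against 0.881, 0.526, 0.236 and 0.0923% (2.51 ± 0.68, adjusted p = 0.00203). Intron 12 of Hnrnpu (chr1:178329940-178330164, minus strand) held 11.2, 3.87, 8.66 and 5.06% against 1.32, 0.644, 1.13 and 2.00% (2.34 ± 0.57, adjusted p = 0.00065). Both had groups that did not overlap in PyMT-M, and neither passed in another model. Intron 8 of Hnrnph1 (chr11:50383062-50383178, plus strand), with a mean of 5.24 reads inside it per library, held 3.05, 3.26, 1.45 and 5.10% against 0.911, 0.998, 0.288 and 0.606% (2.12 ± 0.81, adjusted p = 0.0242). Its call was lost without vehicle library 3 (1.90, adjusted p = 0.0631).

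In Hnrnpa1, intron 2 (chr15:103241197-103241445, plus strand) held 9.47, 7.28, 7.24 and 7.14% in PyMT-M H3B-8800 tumors, against 1.18, 0.272, 0.171 and 0.513% in vehicle tumors (log2 change 4.01 ± 0.68, adjusted p = 7.38e-06). The 2208L values of 1.78, 1.54 and 1.99% against 0, 0.527 and 0.518% did not overlap either (2.28 ± 0.80, adjusted p = 0.0365). The 2208L call was lost without any 1 of the 6 libraries of 2208L (1.77 to 2.67, adjusted p of 0.051 to 0.16) and without the libraries with muscle or B cell transcripts (1.77, 0.215). In AT3 its change of 1.54 ± 0.76 (adjusted p = 0.146) passed without vehicle library 2 (2.38, 0.0432). Intron 3 of Hnrnpa2b1 (chr6:51466706-51466905, minus strand) held 2.96, 1.98, 2.605 and 2.09% in PyMT-M H3B-8800 tumors, against 0.241, 0.149, 0.266 and 0.787% in vehicle tumors (2.91 ± 0.58, adjusted p = 7.13e-05). In AT3 it was at 0.424 and 2.20% against 0.261, 0.367 and 0.492%, where the H3B-8800 libraries stood apart from each other (1.85 ± 0.69, adjusted p = 0.0524). Over all introns these 2 libraries were at 14.2 and 20.4%. This AT3 change passed in DESeq2 (1.86, adjusted p = 0.0275) and in edgeR without PyMT-M vehicle 2 or 4, 2208L vehicle 1 or the T11 library labelled vehicle 1 (1.85, 0.035 to 0.0491). Without AT3 H3B-8800 library 1 it was 2.63 (adjusted p = 0.0109), a fit with 1 treated AT3 library.

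No hnRNP intron differed in its drug effect between PyMT-M and AT3 by edgeR, where 0.00192% of all introns did; 11 of 81 had an unadjusted p under 0.05, and DESeq2 called 1, intron 7 of Hnrnpl (1.53, adjusted p = 0.0137). Between 2208L and T11, 22 of 81 differed, 15 higher and 7 lower, where 36.8% of all introns were higher and 1.26% lower. Intron 7 of Hnrnpl differed by 3.26 ± 0.50 and intron 8 of Hnrnpd by -2.89 ± 0.59 (adjusted p = 4.41e-06 and 0.000181).

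Among 28 other hnRNP and hnRNP-like genes, 25 were in the files and all 25 passed the filter. In PyMT-M 4 were higher and 7 lower, in 2208L 1 and 3, in AT3 none, and in T11 3 and 6, where 24.8%, 10.3%, 0.3% and 11.7% of all genes passed in PyMT-M, 2208L, AT3 and T11. Their median log2 changes were 0.01, 0.02, 0.03 and -0.09 in these models, against 0.02, 0, 0 and -0.04 over all genes. Syncrip, which encodes hnRNP Q, rose with log2 changes of 0.76 ± 0.16 in PyMT-M and 0.69 ± 0.18 in 2208L (adjusted p = 0.00146 and 0.0192). Khsrp, which encodes a KH-domain protein of splicing and AU-rich decay, fell, with log2 changes of -0.68 ± 0.15 and -0.63 ± 0.17 (adjusted p = 0.00289 and 0.0269). Of 10 factors of nonsense-mediated decay, 1 was higher and 2 lower in PyMT-M, 1 was lower in 2208L, and 1 was lower in T11, shares near those of all genes. Their median log2 changes were 0.12, 0.02 and -0.06 in PyMT-M, 2208L and T11. In AT3 neither list had a call with edgeR, and 6 of the 25 hnRNP genes and 0 of the 10 decay factors had an unadjusted p under 0.05.

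Over the 25 libraries, the gene most like each member by Pearson's r of log2 CPM was Tcp1 for Hnrnpa1 (r = 0.977), Rbbp4 for Hnrnpa2b1 (0.961), Rbm8a for Hnrnpc (0.917), Srsf2 for Hnrnpd (0.947), Dbr1 for Hnrnpdl (0.882), Lrrcc1 for Hnrnph1 (0.936), Khdrbs1 for Hnrnpk (0.964), Snrpa1 for Hnrnpl (0.937), Mcm6 for Hnrnpm (0.960) and Smc4 for Hnrnpu (0.968). The libraries share model and treatment, so these values describe the samples. Among the members, Hnrnpa1 and Hnrnpm were the most alike pair (r = 0.953), and Hnrnpdl and Hnrnpu the least (r = -0.232).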

How the data were processed

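Each of the 25 libraries came with the authors' table of introns, in which the deposited counts are whole reads inside each intron and reads overlapping it, beside an RPKM value deposited with them that was used only to check the counts. Reads were aligned with HISAT2 2.0.4, and the builds named are mm10 and hg38, per the submitters' processing notes. Neither the counting tool nor its strand setting is stated (not given in the sources used here). Deposited coordinates run from the last base of one exon to the first base of the next, and those printed here are of the intron itself. Of 163337 listed introns, 22 without values were left out. No libraries were duplicates: over 300 pairs, at most 0.86% of introns had identical values.

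Spliced reads (overlapping minus intronic) were summed per gene and tested with edgeR 4.0.16 (quasi-likelihood, TMM scaling, R 4.3.3, limma 3.58.1) over all 25 libraries in 8 groups, for 13001 genes with at least 1 CPM in at least 2 libraries. Intronic reads were tested likewise offset by the logged spliced count of the gene, for 52042 introns in 9859 genes with means of at least 5 intronic and 10 spliced reads. P-values were adjusted by Benjamini-Hochberg over all genes or introns tested, and an adjusted p under 0.05 was called. P-values measure the spread between tumors within groups, pooled over the 8 groups. Both scripts were tested on simulated data. DESeq2 1.42.0 and the other alternatives are in the closing section.

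The members and lists were chosen with earlier results of these data known. All 10 members are named. For each member, up to 2 introns called higher and up to 2 called lower in PyMT-M are named, those with the largest change of one direction in PyMT-M, AT3 and 2208L, and also introns with a mean of at least 50% of reads inside in a vehicle group and 20 reads. List genes are named where called one way in at least 2 of PyMT-M, AT3 and 2208L. A list gene that meets this rule is not reported here. Other introns were chosen after their values were seen. Whether 1 replicate number in both arms of a model marks a shared source is not in the labels. The correlation of same-numbered libraries' deviations from their group means was 0.0768, 0.039, 0.369 and 0.103 in PyMT-M, -0.0655 and 0.0559 in AT3, -0.0022, -0.109 and -0.239 in 2208L, and 0.299, -0.364 and -0.257 in T11, so the libraries were not treated as paired.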

Additional observations from a re-analysis of the deposited data

Results flagged for a closer look

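In 5 of 70 groups of 4 libraries, 1 library stood far from the others, and chance alone gives about 1 in 20 groups. The gap to the nearest library was 0.939 of the group's range for Hnrnpa1 intron 2 in PyMT-M H3B-8800 tumors, where library 1 held 9.47% of reads in the intron and the others 7.14 to 7.28%. It was 0.97 for Hnrnpk intron 15, with 1.41% in H3B-8800 library 2 against 2.88 to 2.93% in the others. It was 0.902 for Hnrnph1 intron 4 and 0.887 for Hnrnpm intron 16, both highest in H3B-8800 library 2, at 68.6% against 51.7 to 53.4% and at 84.6% against 76.4 to 77.3%. For Hnrnpu intron 2 it was 0.89 in vehicle tumors, with 1.60% in library 4 and 0.308 to 0.45% in the others. H3B-8800 libraries 1 and 2 are the PyMT-M libraries with muscle transcripts, whose part in these values was not tested.

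The drug effect differed between models by edgeR's interaction test for 20 values among the 10 genes and the introns named here. The count over all tested introns stands with the interaction results. Between PyMT-M and AT3 it was larger in PyMT-M by 0.77 for Hnrnpdl on the log2 scale. Between 2208L and T11, whose effect is that of the libraries as labelled, the gene differences were 1.63 for Hnrnpdl, 1.1 for Hnrnpd, 0.85 for Hnrnpl, 0.63 for Hnrnpa2b1 and -1.04 for Hnrnpu. The effect was higher in 2208L for intron 2 of Hnrnpu (5.59), intron 5 (5.32), intron 7 (3.26) and intron 4 (1.87) of Hnrnpl, intron 4 (4.96) and intron 2 (3.17) of Hnrnpa1, intron 1 of Hnrnph1 (4.16), intron 2 of Hnrnpdl (3.35), intron 3 of Hnrnpa2b1 (2.79) and intron 16 of Hnrnpm (2.09). It was lower in 2208L for intron 8 of Hnrnpd (-2.89), intron 6 (-2.09) and intron 7 (-1.26) of Hnrnpdl, and intron 11 of Hnrnph1 (-1.43).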

How the results depend on the processing

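All the alternatives were run, and 86 of 120 counts of called genes or introns stayed within 1.5 times the value reported. Those that did not follow, and the cause was not tested where none is stated. Called genes: PyMT-M 3 with only its own libraries and 3 without the libraries with muscle or B cell transcripts. AT3 gave 1 in DESeq2. 2208L gave 1 over all overlapping reads and 1 without the muscle or B cell libraries. T11 gave 0 and 1 under own libraries and without the muscle or B cell ones. For PyMT-M minus AT3, DESeq2 called 3, and all overlapping reads, own libraries and leaving out the muscle or B cell libraries 0 each. For PyMT-M minus 2208L, DESeq2 and all overlapping reads called 1 each. For 2208L minus T11, added after the data were seen, all overlapping reads called 3 and leaving out the muscle or B cell libraries 2. Called introns: with means of at least 20 intronic and 50 spliced reads (fewer introns tested), 25 in PyMT-M, 10 in 2208L and 13 in 2208L minus T11. With only introns without an annotated exon (also fewer), 23, 9 and 13 in these and 4 in T11. With means of at least 1 and 1, 3 in AT3 and 10 in 2208L. With own libraries, 3 in AT3. Without the muscle or B cell libraries, 5 in 2208L, 0 in T11 and 10 in 2208L minus T11. DESeq2 called 1 in PyMT-M minus AT3.

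With the replicate number as a block, though pairing was not established, called genes were 2 in T11, 0 in PyMT-M minus AT3, 4 in vehicle PyMT-M over AT3 and 4 in vehicle 2208L over T11, and called introns 1 in AT3. The other counts stayed within 1.5 times.

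Leaving out 1 library at a time gave 3 to 5 called genes in PyMT-M, 0 to 1 in AT3, 1 to 2 in 2208L, 1 to 5 in T11, 1 to 3 in PyMT-M minus AT3, 0 to 1 in PyMT-M minus 2208L, 3 to 5 in 2208L minus T11, 9 to 10 in vehicle PyMT-M over AT3 and 7 to 8 in vehicle 2208L over T11. Called introns were 38 to 47 in PyMT-M, 0 to 8 in AT3, 6 to 18 in 2208L, 2 to 10 in T11, 0 to 0 in PyMT-M minus AT3 and 15 to 24 in 2208L minus T11. Over all overlapping reads, Hnrnpa2b1 (-0.44) and Hnrnpd (-0.093) reversed in PyMT-M. Most reads inside the listed introns of Hnrnpa2b1 lay in intron 9, with a mean of 11220 per library. For Hnrnpd most lay in intron 8, with a mean of 203. Of the single gene values, 2750 kept direction and call, 86 lost it, 42 gained it and 90 uncalled ones moved. Of the single intron values these were 4568, 132, 23 and 51. DESeq2's size factors put the median of all genes at most 0.091 from 0. Few reads, such as a mean of 7.8 inside Hnrnpk intron 15, limit the precision of single introns.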

Other observations

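Pooled over the introns that hold no annotated exon, the share of reads inside introns was higher in H3B-8800 than in vehicle PyMT-M tumors in each of these members: 15.3 ± 2.97% against 5.51 ± 1.33% for Hnrnpl, 16.7 ± 3.08% against 9.70 ± 4.53% for Hnrnpm, 11.6 ± 1.25% against 4.44 ± 1.14% for Hnrnpa1 and 3.94 ± 0.759% against 0.862 ± 0.384% for Hnrnpu (SD, n = 4 each). The Hnrnpm groups overlapped, with vehicle library 4 at 15.8% and H3B-8800 library 4 at 12.5%. For Hnrnpd the share was 1.58 ± 0.772% against 1.498 ± 0.685%, a difference smaller than the SDs. In 2208L the values for Hnrnpl were 4.35 ± 0.875% against 4.32 ± 0.268% (SD, n = 3 each), also within the SDs. In 2208L, Hnrnpm was at 4.22 ± 0.608% against 2.11 ± 0.959%, Hnrnpu at 1.68 ± 0.304% against 0.746 ± 0.0666% and Hnrnpk at 0.416 ± 0.0415% against 0.264 ± 0.0312%, and the groups did not overlap. Hnrnph1 and Hnrnpd had lower means with H3B-8800 in 2208L, at 6.69 ± 1.27% against 8.70 ± 1.18% and 0.650 ± 0.283% against 1.05 ± 0.547%, with groups that overlapped. Over all listed introns, the share was also higher with H3B-8800. In PyMT-M it was at 17.8 to 27.8% against 10.5 to 20.001% with vehicle, which overlapped. In 2208L it was at 13.3 to 14.9% against 7.901 to 10.4%, without overlap. These shares were not tested, and neither was a difference between the members and all introns.

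Some introns outside the rule for naming, chosen after their values were seen, were called lower. In 2208L, Hnrnph1 intron 9 changed by -2.71 ± 0.70 and Hnrnpl intron 12 by -1.93 ± 0.58 on the log2 scale (adjusted p = 0.00618 and 0.0168, edgeR), and in PyMT-M neither passed (-0.69 ± 0.54 and -0.84 ± 0.49). Hnrnpd intron 3 changed by -2.52 ± 0.65 in PyMT-M and -2.28 ± 0.80 in 2208L (adjusted p = 0.00121 and 0.0375).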
